A study of Mus musculus with 16 samples.

Results

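The genes S100a8, S100a9, Camp, Ngp, Ltf, Lcn2, Elane, Mpo, Retnlg and Mmp8 encode proteins of neutrophil granules or of the neutrophil cytosol and were examined by name. They are 10 of the 23356 genes in the deposited table and were selected on their measured FPKM, which stood high in Tmem173-/- cells, so their differences between genotypes are a description and carry no test. The RNA-seq libraries came from dendritic cells (DCs) raised from bone marrow in GM-CSF plus IL-4, termed BMDCs, of wild-type mice (C57BL/6) and of mice with the genotypes Tmem173-/-, Irf1-/- and Irf3/7-/-. Tmem173 encodes STING, the receptor for the bacterial second messenger c-di-GMP, and Irf1, Irf3 and Irf7 encode interferon regulatory factors. The mutations were those of whole knockout mice, so the precursors of the cultures carried them too. Cells of each genotype were left untreated or were stimulated with c-di-GMP for 18 h, at 25 μg/ml according to the sample labels. The study's RNA-seq legends give a higher dose. There were 16 labelled samples, a pair per condition in 8 conditions, and the labels do not say whether the 2 came from separate mice or cultures.

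The authors had combined the replicates of each condition with Cuffdiff before deposition. For each gene and condition the table therefore held one value in FPKM, a fragment count scaled by transcript length and by library size, and the 2 bounds of a confidence interval around it. No spread between replicates could be computed, and no p-value was derived. Calls of higher or lower required a difference of more than 2-fold on the log2(FPKM + 0.1) scale, authors' intervals that did not overlap, at least 1 FPKM in either condition and an estimate with status OK in both. The depth of the libraries could not be read from FPKM. In genes with at least 10 FPKM, the interval reached a median of 25.1% to 25.7% of the FPKM to either side in the 8 conditions. Since FPKM is scaled by transcript length, levels can be set side by side roughly between genes as well as between conditions. This holds less well where a gene shares its listed locus with other genes or has close copies.

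Neutrophils are made in bone marrow in steps, and each step fills a different kind of granule. Azurophil (primary) granules are made first, in promyelocytes, and hold myeloperoxidase and serine proteases such as neutrophil elastase. Specific (secondary) granules follow in myelocytes and hold lactoferrin, lipocalin 2 and cathelicidin, and gelatinase (tertiary) granules come last. The transcripts mark the stage of the cell, because granule proteins are stored and their genes are largely silent in mature neutrophils. S100A8 and S100A9 form calprotectin, a calcium- and zinc-binding complex that is abundant in the neutrophil cytosol and is also made by monocytes. Bone marrow cultures with GM-CSF give rise to DCs and macrophages and can retain granulocytes and their precursors. According to the study's methods, the floating and loosely attached cells of the cultures were harvested as BMDCs, and no sort before RNA extraction is described. Since the RNA is that of a mixed harvest, more cells of a type and more RNA per cell cannot be told apart.

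The labels were checked against the targeted genes and marker genes. Tmem173 had 8.97 and 7.49 FPKM in untreated and treated Tmem173-/- BMDCs and 77.0 to 118 FPKM in the other 6 conditions. Irf1 was lower in Irf1-/- than in wild-type BMDCs, with 25.9 against 149 FPKM untreated and 116 against 245 FPKM treated. Irf7 had 1.07 and 4.97 FPKM in untreated and treated Irf3/7-/- BMDCs against 15.2 and 687 FPKM in wild-type. Irf1 and Irf7 were also low in untreated and treated Tmem173-/- BMDCs, at 24.1 and 23.3 FPKM and at 3.17 and 3.37 FPKM. A low level of Irf1 or Irf7 therefore does not tell Irf1-/- or Irf3/7-/- BMDCs from Tmem173-/- BMDCs. Irf3, however, went against the label in one condition. It had 7.74 FPKM in untreated Irf3/7-/- BMDCs against 19.9 FPKM in wild-type, but 20.2 FPKM in the treated condition labelled Irf3/7-/- against 15.8 FPKM in treated wild-type BMDCs. The Irf3 intervals in Irf3/7-/- BMDCs lay apart between the states, at 5.55 to 9.96 FPKM untreated and 14.8 to 25.7 FPKM treated. FPKM counts a whole gene, including exons that a deletion may leave in place. Whether this bears on any of these levels was not tested. The treated Tmem173-/- values were read from columns whose name carries GDP where the other treated conditions carry cdg. All 12 DC markers were measured, 8 or 9 of them reached 10 FPKM in each condition, and their summed level lay between 5097 and 9804 FPKM. One of them, Cd209a, stood below 1 FPKM in 5 conditions and was listed at 0 in treated wild-type BMDCs. Ciita, Ccr7 and Cd83 were called lower in Tmem173-/- than in wild-type BMDCs in both states, and H2-Ab1, H2-Aa, H2-Eb1 and Ciita, which serve MHC class II presentation, in Irf1-/- BMDCs in both states. Other DC markers went the other way. Cd209a was called higher in Tmem173-/- BMDCs in both states (3.10 against 0.182 FPKM untreated) and in untreated Irf1-/- BMDCs. Itgax was called higher in treated Tmem173-/- BMDCs, with 328 against 135 FPKM. Of 14 neutrophil markers, 13 were measured, all at 1 FPKM or more in every condition, and Ly6g was not analysed here. Only 6 of these 13 are not among the 10 genes, so this count is not independent of them.

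The 10 genes lie on 6 chromosomes (RefSeq, GRCm38.p6). S100a8 and S100a9 are neighbours on chromosome 3, from 90669071 to 90670034 and from 90692630 to 90695721. Camp (109847377 to 109849456), Ngp (110419808 to 110423012) and Ltf (111019292 to 111042766) share a stretch of 1.20 Mb on chromosome 9, where Mmp8 (7558429 to 7568486) also lies, far from them. Lcn2 is on chromosome 2 (32384637 to 32387739), Elane on chromosome 10 (79886312 to 79888216), Mpo on chromosome 11 (87793784 to 87804412) and Retnlg on chromosome 16 (48872608 to 48874498). For 9 of the 10, the table's locus was that of the single gene. Elane carried a locus of 672 kb that was listed for 47 genes at once, and the lower bound of its interval was 0 in all 8 conditions, so it could not be called in any comparison.

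Promoters from 250 bases before to 50 bases after the annotated start were taken from RefSeq (GRCm38.p6), where all 10 genes were matched. Those of S100a8 and S100a9 are shown because the 2 proteins form one complex and their levels moved together. Those of Ngp and Camp are shown as related cathelicidin family genes of the same stretch of chromosome 9 that differ in their motif matches. Matches on either strand to the C/EBP pattern TTNNGNAA and to the TATA box TATAAA are in capitals. The sequences are written 5′ to 3′ on the gene's strand, at chr3:90668821-90669120 (plus strand) for S100a8, chr3:90695672-90695971 (minus strand) for S100a9, chr9:110419558-110419857 (plus strand) for Ngp and chr9:109849407-109849706 (minus strand) for Camp.
S100a8: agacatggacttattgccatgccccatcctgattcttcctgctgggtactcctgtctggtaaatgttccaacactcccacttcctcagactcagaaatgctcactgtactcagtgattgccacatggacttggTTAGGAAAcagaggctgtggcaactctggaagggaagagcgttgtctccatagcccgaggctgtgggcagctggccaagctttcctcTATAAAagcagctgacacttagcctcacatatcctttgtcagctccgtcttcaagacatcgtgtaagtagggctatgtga
S100a9: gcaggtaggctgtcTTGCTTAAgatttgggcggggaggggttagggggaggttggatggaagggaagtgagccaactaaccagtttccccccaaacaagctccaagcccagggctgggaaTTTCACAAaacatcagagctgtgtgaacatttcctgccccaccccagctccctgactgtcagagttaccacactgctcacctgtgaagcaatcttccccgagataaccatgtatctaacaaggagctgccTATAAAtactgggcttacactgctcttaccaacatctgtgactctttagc
Ngp: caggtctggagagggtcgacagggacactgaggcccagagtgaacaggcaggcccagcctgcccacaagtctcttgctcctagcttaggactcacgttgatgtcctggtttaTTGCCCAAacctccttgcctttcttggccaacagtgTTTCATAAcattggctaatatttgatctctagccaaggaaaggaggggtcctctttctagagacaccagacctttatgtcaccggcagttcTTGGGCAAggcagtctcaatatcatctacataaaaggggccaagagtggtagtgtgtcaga
Camp: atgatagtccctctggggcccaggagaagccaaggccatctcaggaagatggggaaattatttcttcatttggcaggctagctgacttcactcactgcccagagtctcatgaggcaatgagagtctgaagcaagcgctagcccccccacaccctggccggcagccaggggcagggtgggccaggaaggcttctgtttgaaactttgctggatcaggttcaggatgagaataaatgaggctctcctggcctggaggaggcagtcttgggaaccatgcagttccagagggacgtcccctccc

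C/EBP factors are transcription factors of granulocyte development. Positions were counted with the first base of the gene as 0. S100a8 held a C/EBP match from -117 to -110 and a TATA box from -30 to -25. S100a9 held C/EBP matches from -236 to -229 and from -130 to -123, and its TATA box lay at 0 to 5 from the RefSeq start. The start in the deposited table, at 90695691, lies 30 bases further into the gene. Ngp held C/EBP matches from -138 to -131, from -102 to -95 and from -11 to -4, and Camp held none. A C/EBP match was found in 7 of the 10 promoters and in 40.7% of all 32851 promoters of the same length, a TATA box in 3 of the 10 and in 13.6%. The NF-kB pattern GGGNNNNNCC was found in 4 of the 10 and in 50.8% of all promoters, and its 2 matches in Camp and 3 in Ltf overlapped one another. The PU.1 pattern AGGAAGT was found in 4 of the 10 and in 9.35%. No promoter of the 10 held the interferon response element GAAANNGAAA, which was found in 3.44% of all promoters. A match is a stretch of letters in this window and was not tested for binding.

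S100a8 and S100a9 had the highest levels of the 10 genes in all 8 conditions. S100a8 had 2531, 10351, 1361 and 1296 FPKM in untreated BMDCs of wild-type mice and of Tmem173-/-, Irf1-/- and Irf3/7-/- mice, and 1105, 7513, 725 and 791 FPKM after c-di-GMP, in the same order. S100a9 had 1350 FPKM (authors' interval, 893 to 1611), 8336 FPKM (5121 to 10122), 974 FPKM (631 to 1138) and 865 FPKM (560 to 1010) without treatment. After c-di-GMP, S100a9 had 643 FPKM (419 to 753), 5974 FPKM (3837 to 7222), 611 FPKM (412 to 741) and 561 FPKM (373 to 671). Both Tmem173-/- conditions stood above the other 6 for both genes, with intervals that did not overlap. In Tmem173-/- BMDCs the 2 genes ranked 5th and 8th of all genes untreated, and 7th and 10th treated. In wild-type BMDCs they ranked 16th and 54th untreated, and 67th and 145th treated. The ratio of S100a8 to S100a9 was 1.87 and 1.72 in untreated and treated wild-type BMDCs, and between 1.19 and 1.5 in the 6 knockout conditions. The S100a8 FPKM lay above its own interval in every condition, as in untreated wild-type BMDCs, where the interval ran from 1204 to 2169. An FPKM outside its own interval was found in 0.936% to 1.42% of the genes with at least 10 FPKM, depending on the condition, so calls on S100a8 rest on intervals that do not contain its level.

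Camp encodes cathelicidin, the precursor of an antimicrobial peptide of specific granules. It had 18.8 FPKM (11.9 to 23.8) in wild-type BMDCs without treatment, against 339 FPKM (210 to 381) in those of Tmem173-/- mice, 7.10 FPKM (4.05 to 9.56) in those of Irf1-/- mice and 20.5 FPKM (12.7 to 25.2) in those of Irf3/7-/- mice. With c-di-GMP the levels were 37.0 FPKM (23.1 to 46.4), 241 FPKM (152 to 270), 3.96 FPKM (2.19 to 5.71) and 25.9 FPKM (16.4 to 33.7). Camp had the widest range of the 10 genes, 85.6-fold between untreated Tmem173-/- and treated Irf1-/- BMDCs. Both Irf1-/- conditions lay below all others, without overlap of intervals.

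Ngp encodes neutrophilic granule protein, a cathelicidin relative of the specific granules. It had 93.4, 743, 65.3 and 49.0 FPKM in untreated BMDCs of wild-type mice and of Tmem173-/-, Irf1-/- and Irf3/7-/- mice, and 104, 620, 42.9 and 49.6 FPKM after c-di-GMP. The ratio of Ngp to Camp was 9.19 and 10.8 in Irf1-/- BMDCs and 1.92 to 4.96 in the other 6 conditions. In Irf1-/- BMDCs, Camp was called lower than wild-type in both states, and Ngp after c-di-GMP.

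Ltf encodes lactoferrin, an iron-binding protein of specific granules. It had 15.6 FPKM (12.1 to 19.1), 174 FPKM (133 to 215), 11.7 FPKM (8.96 to 14.4) and 2.85 FPKM (2.07 to 3.61) in untreated BMDCs of wild-type mice and of Tmem173-/-, Irf1-/- and Irf3/7-/- mice. After c-di-GMP it had 12.2 FPKM (9.37 to 15.0), 137 FPKM (105 to 169), 3.33 FPKM (2.45 to 4.21) and 3.0 FPKM (2.19 to 3.80). Low levels were found in 3 conditions, both Irf3/7-/- conditions and treated Irf1-/- BMDCs, whose intervals overlapped each other and lay below those of the other 5.

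Lcn2 encodes lipocalin 2, which binds bacterial siderophores and is made by many stimulated cells besides neutrophils. It had 115 FPKM (81.9 to 146), 613 FPKM (422 to 768), 73.8 FPKM (51.9 to 92.0) and 73.4 FPKM (51.8 to 91.7) in the same order without treatment. After c-di-GMP it had 160 FPKM (113 to 200), 499 FPKM (348 to 626), 72.4 FPKM (51.9 to 92.0) and 168 FPKM (119 to 214). Its range over the conditions, 8.47-fold, was the smallest of the 10 genes. It was the single gene of the 10 called higher with c-di-GMP in any genotype, in Irf3/7-/- BMDCs.

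Mpo, which encodes myeloperoxidase of azurophil granules, had another order of levels. It had 3.70 FPKM (2.72 to 4.69), 19.1 FPKM (13.9 to 23.8), 24.7 FPKM (18.9 to 30.5) and 16.5 FPKM (12.6 to 20.3) in untreated BMDCs of wild-type mice and of Tmem173-/-, Irf1-/- and Irf3/7-/- mice. After c-di-GMP it had 2.90 FPKM (2.08 to 3.72), 15.8 FPKM (11.6 to 19.8), 12.6 FPKM (9.64 to 15.5) and 13.7 FPKM (10.5 to 16.9). All 6 knockout conditions lay above both wild-type conditions without overlap, and the highest level was in untreated Irf1-/- BMDCs. Elane, which encodes neutrophil elastase of the same granules, had 2.45, 40.8, 16.4 and 8.61 FPKM untreated and 0.687, 31.4, 8.11 and 1.58 FPKM treated. Its upper bounds, 142 FPKM in untreated Tmem173-/- and 83.3 FPKM in untreated Irf1-/- BMDCs, were several times the level, and all 8 intervals overlapped.

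Mmp8 encodes neutrophil collagenase. It had 11.9 FPKM (9.13 to 14.8), 56.8 FPKM (43.3 to 70.2), 7.36 FPKM (5.58 to 9.14) and 17.4 FPKM (13.4 to 21.3) in untreated BMDCs of wild-type mice and of Tmem173-/-, Irf1-/- and Irf3/7-/- mice, and 4.87 FPKM (3.65 to 6.11), 106 FPKM (81.6 to 130), 5.40 FPKM (4.05 to 6.76) and 15.4 FPKM (11.9 to 19.0) after c-di-GMP. Mmp8 was the one gene of the 10 whose highest level was in treated Tmem173-/- BMDCs. Retnlg encodes resistin-like gamma, made by late neutrophils. It had 4.48, 28.4, 6.28 and 6.55 FPKM untreated and 1.87, 15.1, 7.17 and 5.62 FPKM treated, in the same order. Retnlg was highest in Tmem173-/- BMDCs, but the interval of the treated ones, 8.76 to 18.4 FPKM, overlapped that of treated Irf1-/- BMDCs, 3.86 to 8.96 FPKM.

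**Figure D1:**
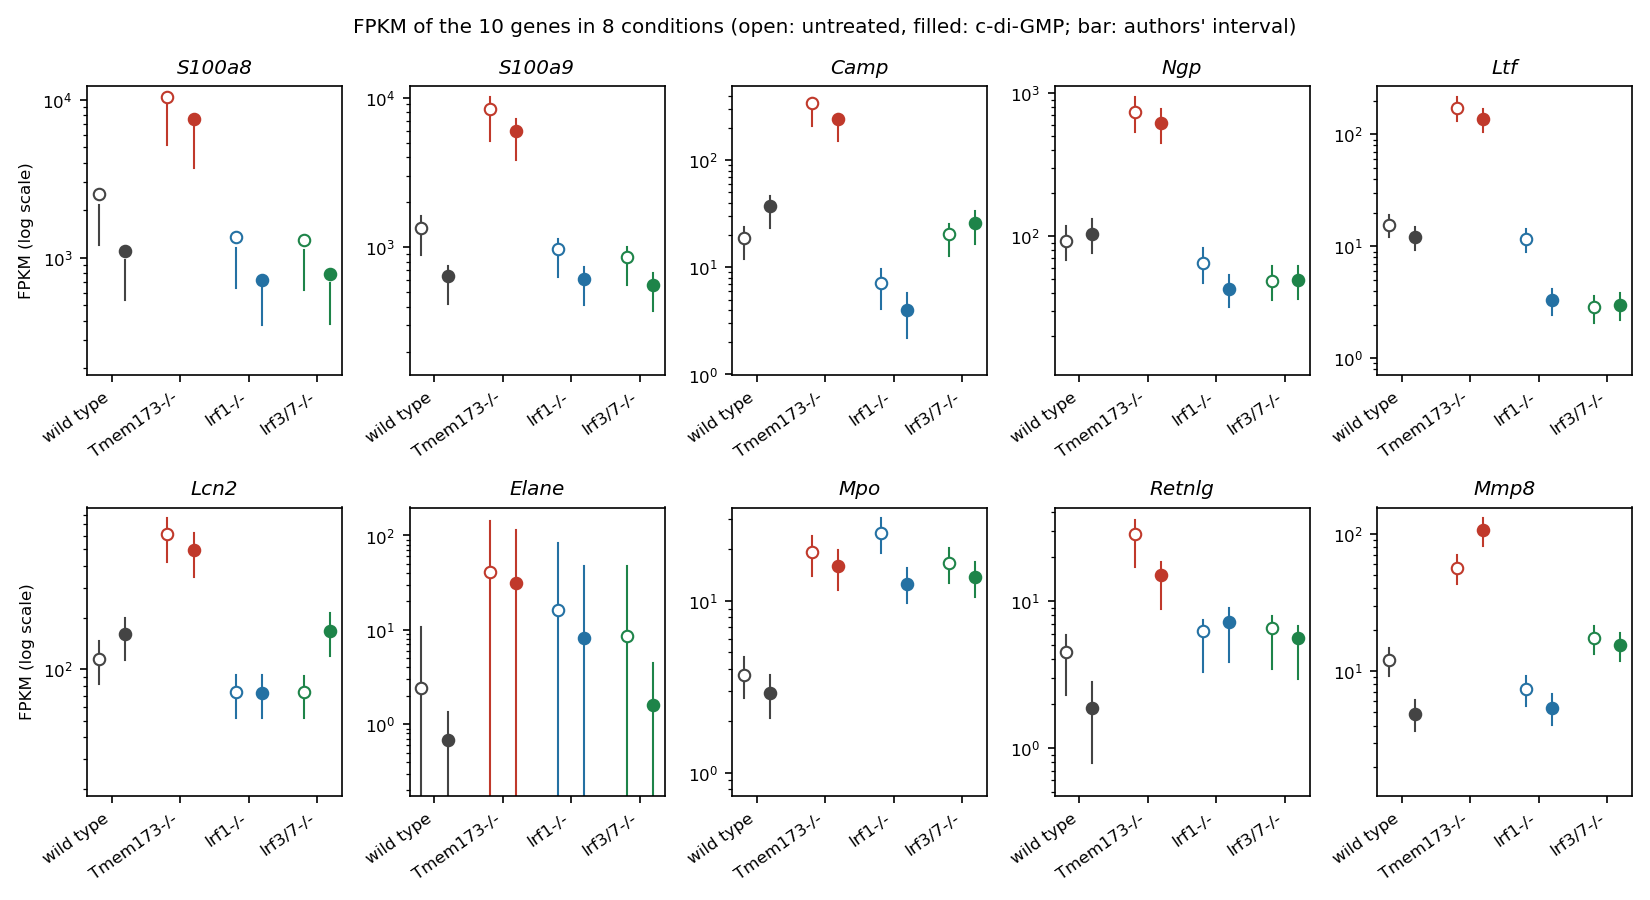
FPKM (vertical axis, log scale) of each of the 10 genes by genotype, with open points for untreated and filled points for c-di-GMP-treated BMDCs and bars for the authors' confidence intervals. Bars that reach a panel's lower edge in Elane start at 0. The red Tmem173-/- points are the highest in every panel but Mpo, in which all knockout points lie above the grey wild-type points, and the S100a8 points lie above their own bars.

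Ordering the 8 conditions by level gave 70 pairs of neighbouring conditions over the 10 genes, and the intervals lay apart in 12 of these. In 7 genes, S100a8, S100a9, Camp, Ngp, Ltf, Lcn2 and Mmp8, one such gap separated the 2 Tmem173-/- conditions from the other 6. Below that gap, gaps were found in S100a8 (untreated wild-type above untreated Irf1-/-), Camp (untreated wild-type above untreated Irf1-/-) and Ltf (untreated above treated Irf1-/-). In Mpo the gap lay between treated Irf1-/- and untreated wild-type BMDCs, and in Mmp8 a further gap set treated above untreated Tmem173-/- BMDCs. In the remaining pairs the neighbours did not differ beyond the authors' intervals.

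Without treatment, 9 of the 10 genes were called higher in Tmem173-/- than in wild-type BMDCs and 0 were called lower. Over all 11101 genes tested, 5.04% were called higher and 5.95% lower, but the genes were picked for this contrast and nothing is read from their count. The median log2 difference was 2.63 over the 10 genes, all of which lay above 0, and 0.01 over all genes tested. The differences ran from 2.03 for S100a8 to 4.16 for Camp. After c-di-GMP, the same 9 genes were called higher and 0 lower, where 12.9% of 11318 genes were called higher and 13.5% lower. The median log2 difference was 2.86, with the lowest value for Lcn2 (1.64). Among called genes, the highest value was that of Mmp8 (4.41). The uncalled gene in both comparisons was Elane, with log2 differences of 4.0 untreated and 5.32 treated.

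The response to c-di-GMP was followed within each genotype. In wild-type BMDCs 0 of the 10 genes were called higher and 3 were called lower, against 10.5% higher and 9.96% lower of 11201 genes tested. The 3 were Mmp8 (log2 difference -1.28), S100a8 (-1.20) and S100a9 (-1.07). Retnlg differed by -1.22 and Elane by -1.70, with overlapping intervals. Camp went the other way, at 0.97, also with overlapping intervals. Camp, Ngp, Ltf and Lcn2, listed here as specific granule genes, had differences from -0.35 to 0.97 in wild-type BMDCs and were not called. The called Mmp8 is listed with the gelatinase granule genes.

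In Tmem173-/- BMDCs, which lack the receptor, 0 of the 10 genes were called in either direction with c-di-GMP. Of 10867 genes tested, 0.046% were called higher and 0.0092% lower. Of the 10 genes, 9 had differences below 0, down to -0.91 for Retnlg, and Mmp8 had a difference of 0.90 with intervals that lay apart. In Irf1-/- BMDCs, Ltf was the one gene called (log2 difference -1.78, lower), against 9.67% of 11164 genes called higher and 7.81% called lower. Mpo differed by -0.97 there, with intervals that lay apart but less than 2-fold. In Irf3/7-/- BMDCs, Lcn2 was the one gene called (1.19, higher), against 10.2% higher and 7.68% lower of 11283 genes. That call rests on the treated condition labelled Irf3/7-/-, in which Irf3 went against the label. S100a8 and S100a9 differed by -0.91 and -0.67 in Irf1-/-, by -0.71 and -0.63 in Irf3/7-/- and by -0.46 and -0.48 in Tmem173-/- BMDCs. These values have the sign of the wild-type difference and were not called, and the difference between genotypes was not tested.

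The comparisons of Irf1-/- and Irf3/7-/- with wild-type BMDCs use the same wild-type conditions as the Tmem173-/- comparison, so their values are given side by side. In untreated Irf1-/- BMDCs, Mpo was called higher (log2 difference 2.70) and Camp lower (-1.39), where 1.26% of 11017 genes were called higher and 3.52% lower. In untreated Irf3/7-/- BMDCs, Mpo was called higher (2.13) and Ltf lower (-2.41), where 1.17% of 11004 genes were called higher and 0.863% lower. The median over the 10 genes was -0.49 in Irf1-/- and -0.26 in Irf3/7-/- BMDCs. Mpo was therefore called higher in all 3 untreated knockouts, at 2.34 in Tmem173-/-, whereas S100a8 was called in Tmem173-/- alone, with -0.89 in Irf1-/- and -0.97 in Irf3/7-/-.

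After c-di-GMP, 2 genes were called higher and 4 lower in Irf1-/- than in wild-type BMDCs, where 2.65% of 11079 genes were called higher and 4.91% lower. Mpo (log2 difference 2.08) and Retnlg (1.88) were higher. The 4 genes listed here as specific granule genes were lower: Camp (-3.19), Ltf (-1.84), Ngp (-1.28) and Lcn2 (-1.14). Mmp8, listed with the gelatinase granule genes, was not called (0.15). Of the further specific granule genes described below, 6 were tested, and 2 were called lower (Hp and Cybb) and 0 higher. In the treated condition labelled Irf3/7-/-, 3 genes were called higher and 2 lower, where 4.61% of 11209 genes were called higher and 2.69% lower. Mpo (2.20), Mmp8 (1.64) and Retnlg (1.54) were higher, and Ltf (-1.99) and Ngp (-1.07) were lower. S100a8 and S100a9 were called in neither, with differences from -0.61 to -0.07. In both of these knockouts the azurophil gene Mpo was thus called above treated wild-type BMDCs and Ltf and Ngp below, while all 3 were called above in treated Tmem173-/- BMDCs.

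**Figure D2:**
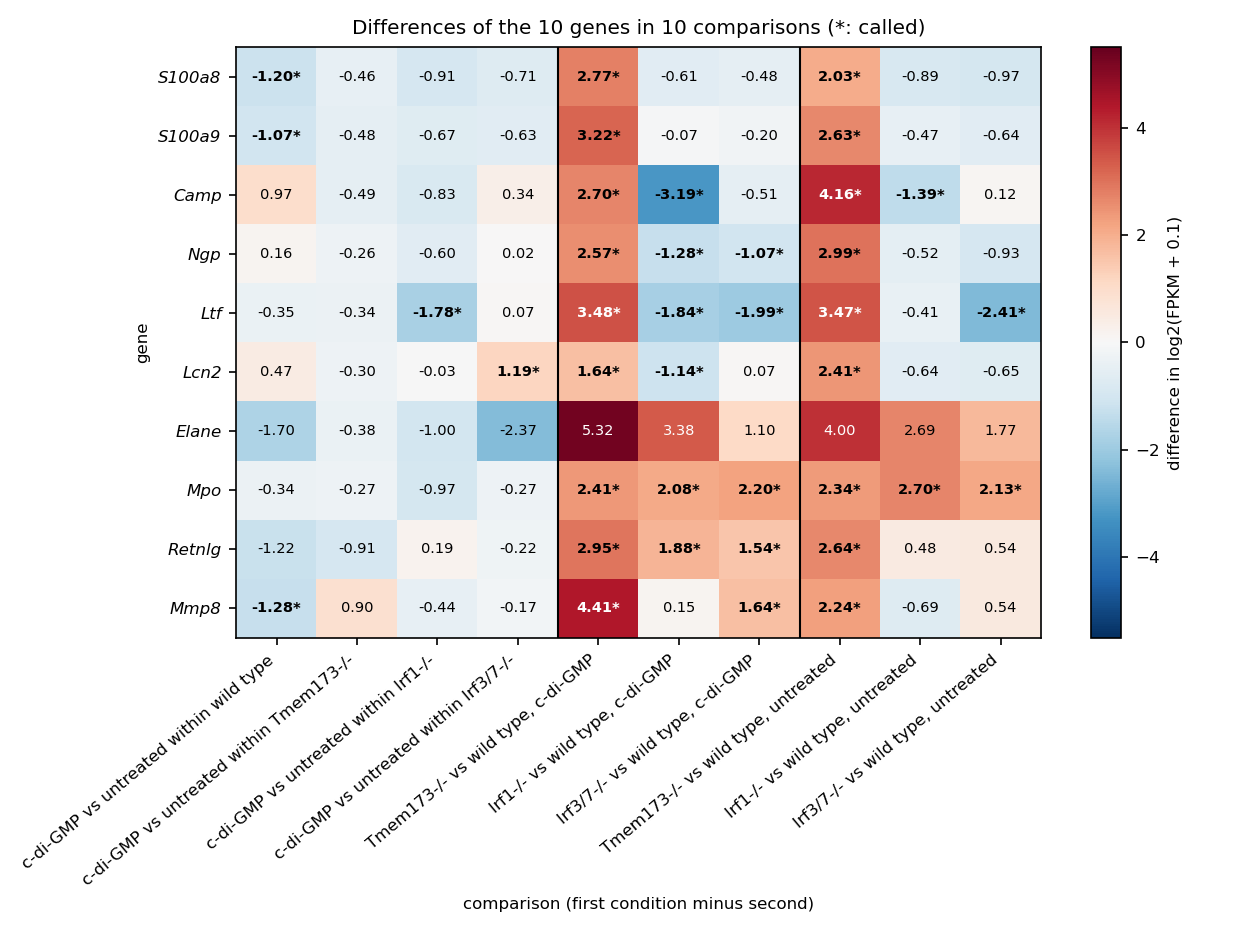
Differences in log2(FPKM + 0.1) of the 10 genes (rows) in the 10 comparisons (columns), printed in each cell and coloured on a scale from blue (lower) to red (higher), with an asterisk and bold type on called values. The 2 Tmem173-/- against wild-type columns are red in every row, from 1.64 to 5.32, while the 4 columns of Irf1-/- and Irf3/7-/- against wild-type are red for Mpo and blue for Ltf.

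Over the 8 conditions the levels of S100a8 and S100a9 had a Pearson r of 0.99 on the log2 scale, the highest among pairs of the 10 genes. That of Mpo and Camp was 0.08, the lowest, and that of Mpo and Elane was 0.78. These are descriptions over 8 conditions that share a table and, in part, a genotype. The 10 genes were selected for high levels in Tmem173-/- BMDCs. Any gene high in those conditions therefore tends to a high r with them, whatever its function. Outside the 10 genes, the gene with the pattern most like each was sought among 1397 others with at least 10 FPKM in one condition and a range of at least 2 log2 units. Elane was most like Prtn3 (r = 0.98), which encodes proteinase 3 and lies in the same merged locus, and Mmp8 was most like Mmp9 (0.97), which encodes gelatinase B. Of these others, Trem3, a myeloid receptor gene, was most like S100a9 (0.99) and Tnfrsf12a most like S100a8 (0.97), each slightly below the r of the calprotectin pair itself. Camp was most like Hsd11b1 (0.99), Ngp like Sepp1 (0.99), Ltf like Lrg1 (0.98), Lcn2 like Cd33 (0.98), Retnlg like Uchl1 (0.96) and Mpo like Clec2l (0.90). Padi4, which encodes the enzyme that citrullinates histones in neutrophils, was among the 3 genes most like S100a8 (0.97) and the 3 most like Ngp (0.99). Padi4 had 17.9 and 17.5 FPKM in untreated and treated Tmem173-/- BMDCs and 2.91 to 5.94 FPKM in the other conditions. Tnfrsf12a, for S100a8 and S100a9, and Lrg1, for S100a8 and Ltf, recurred in the same way.

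Further genes of the same granules were taken from lists, with the 10 genes left out. Over all genes tested, the median log2 difference was 0.01 untreated and 0.02 treated in Tmem173-/- against wild-type BMDCs, and the shares called are those given above for these comparisons. Of 7 further specific granule genes, 6 were tested without treatment, and 5 were called higher and 0 lower in Tmem173-/- than in wild-type BMDCs, with a median log2 difference of 2.83. They were Lyz2 (lysozyme, 776 against 9000 FPKM), Hp (haptoglobin, 56.7 against 296 FPKM), Cybb (the gp91 subunit of NADPH oxidase, 80.4 against 303 FPKM), Cd177 (5.00 against 49.8 FPKM) and Olfm4 (1.01 against 10.6 FPKM). Of 11 monocyte and macrophage markers, 5 were also called higher and 0 lower in this comparison. Which cells the transcripts of these granule genes came from was not tested. Lyz2 has a close relative in Lyz1, and how reads shared by the 2 were counted is not given in the sources used here. After c-di-GMP, 3 of 7 were called higher and Chil3 lower. In wild-type BMDCs, stimulation took Hp and Cybb to 160 and 233 FPKM, both called higher, and they were not called between treated Tmem173-/- and treated wild-type BMDCs. Chil3 was listed at 0 in untreated wild-type, Irf1-/- and Irf3/7-/- BMDCs and between 1091 and 9318 FPKM elsewhere, and no fold is given. Its estimate did not have status OK where it was listed at 0, so the 0 is not read as absence, and it was not tested untreated.

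Of 7 further gelatinase granule and late neutrophil genes, 6 were tested. In Tmem173-/- against wild-type BMDCs, 4 were called higher and 0 lower untreated, and 4 higher and 1 lower treated. Mmp9 had 17.9 and 6.78 FPKM in untreated and treated wild-type BMDCs and 106 and 105 FPKM in Tmem173-/- BMDCs. Wfdc21, listed under an older name, had 51.3 and 49.5 against 614 and 403 FPKM, and Lrg1 had 2.16 and 1.61 against 13.5 and 12.0 FPKM. Itgam, which encodes the CD11b integrin of myeloid cells, had 164 and 77.9 against 266 and 354 FPKM and was called after c-di-GMP. Mmp25, which encodes leukolysin, went the other way after c-di-GMP, with 55.4 FPKM in wild-type and 15.9 FPKM in Tmem173-/- BMDCs. Of the 4 further azurophil granule genes, 3 were tested in each comparison with wild-type BMDCs but that of untreated Irf1-/- BMDCs, in which all 4 were. Ctsg, which encodes cathepsin G, was called higher in all 3 knockouts in both states, as was Mpo. It had 6.44 and 6.11 FPKM in untreated and treated wild-type BMDCs and 14.9 to 22.1 FPKM in the 6 knockout conditions. Ctsc, whose product activates the serine proteases of these granules, had 191 and 176 FPKM in wild-type BMDCs, 255 and 247 FPKM in Tmem173-/- and 97.3 and 67.5 FPKM in Irf1-/- BMDCs, where it was called lower after c-di-GMP. Prtn3 had 6.39 and 2.26 FPKM in wild-type against 57.4 and 43.1 FPKM in Tmem173-/- BMDCs. It is listed with the same merged locus as Elane, its intervals also start at 0 in all 8 conditions, and it was not called.

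Other S100 genes were compared with the calprotectin pair. Of 13 further S100 genes, 7 were tested in Tmem173-/- against wild-type BMDCs, and S100a4 alone was called higher untreated and S100a4 and S100a6 treated. S100a4 had 864 and 254 FPKM in untreated and treated wild-type BMDCs and 1875 and 1259 FPKM in Tmem173-/- BMDCs. With c-di-GMP, S100a4, S100a5 and S100a6 were called lower within wild-type and within Irf3/7-/- BMDCs, as S100a8 and S100a9 were within wild-type, and within Irf1-/- BMDCs S100a4 and S100a5 were called lower and S100a3 and S100a11 higher. S100a6 had 643 and 192 FPKM in wild-type and 1137 and 787 FPKM in Tmem173-/- BMDCs. Against treated wild-type BMDCs, S100a6 was also called higher in treated Irf1-/- BMDCs and in the treated condition labelled Irf3/7-/-. S100a10 and S100a11, which encode partners of annexins, were not called in Tmem173-/- against wild-type BMDCs, with 767 and 1813 FPKM in untreated wild-type and 847 and 1804 FPKM in untreated Tmem173-/- BMDCs. Stefins are cysteine protease inhibitors, several of which are expressed in mouse neutrophils. Of 9 stefin and cystatin genes tested, 4 were called higher and 1 lower untreated, and 6 higher and 2 lower treated. Stfa3 had 19.9 and 20.2 FPKM in untreated and treated wild-type BMDCs, 113 and 74.9 FPKM in Tmem173-/-, and 2.50 to 7.37 FPKM in the 4 other knockout conditions. Stfa2 had 58.1 and 22.8 FPKM in wild-type, 167 and 102 FPKM in Tmem173-/- and 10.6 and 6.22 FPKM in Irf3/7-/- BMDCs, and BC100530 and Gm5483 were likewise highest in untreated Tmem173-/- BMDCs, at 207 and 250 FPKM. The stefin genes are a family of close copies, so reads may have been split between them. The 2 lower genes were Cst7 (222 against 13.6 FPKM treated) and Cst3 (9604 against 2714 FPKM treated), of which Cst3 is a cystatin abundant in DCs.

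Receptors through which neutrophils adhere and find their targets were examined next. Of 12 surface and chemotactic receptor genes, 10 were tested in Tmem173-/- against wild-type BMDCs, and 6 were called higher and 1 lower untreated, and 7 higher and 0 lower treated. Csf3r, the receptor of G-CSF, had 2.25 and 4.85 FPKM in untreated and treated wild-type and 12.6 and 12.9 FPKM in Tmem173-/- BMDCs. Itgb2, the beta chain of leukocyte integrins, had 259 and 210 against 520 and 533 FPKM, and Il1r2, the decoy receptor of IL-1, had 19.6 and 6.16 against 61.1 and 55.5 FPKM. Clec5a, an activating receptor of myeloid cells, was called higher after c-di-GMP, with 22.9 against 67.6 FPKM. Cxcr2, the chemokine receptor of mature neutrophils, had 72.4 FPKM in untreated wild-type and 15.4 FPKM in untreated Tmem173-/- BMDCs, a log2 difference of -2.22, called lower. After c-di-GMP the order was turned, with 7.20 FPKM in wild-type BMDCs against 16.4 FPKM in Tmem173-/- BMDCs, called higher. Cxcr2 was called lower after c-di-GMP in wild-type, Irf1-/- and Irf3/7-/- BMDCs, with log2 differences of -3.31, -2.81 and -3.61, and differed by 0.08 in Tmem173-/- BMDCs. The formyl peptide receptor genes Fpr1 and Fpr2 were called lower in Irf1-/- than in wild-type BMDCs in both states, with log2 differences from -3.76 to -1.93.

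Of 13 transcription factors listed here for granulocyte development, 1 was called higher and 2 lower in untreated Tmem173-/- BMDCs, and 3 higher and 5 lower in treated ones. Cebpa, which acts early in the lineage, was called higher in both, with 13.8 and 4.32 FPKM in untreated and treated wild-type and 28.9 and 24.9 FPKM in Tmem173-/- BMDCs. Cebpe, which drives specific granule genes, was called in neither. It had 32.7 and 13.2 FPKM in wild-type, 24.4 and 20.9 FPKM in Tmem173-/-, 33.7 and 21.0 FPKM in Irf1-/- and 28.6 and 14.5 FPKM in Irf3/7-/- BMDCs. Ets1 was called lower in both states, with 10.7 and 6.91 FPKM in wild-type and 2.28 and 2.84 FPKM in Tmem173-/- BMDCs. It was also called lower in Irf1-/- BMDCs in both states and higher in the treated condition labelled Irf3/7-/-. The T and NK cell markers Cd3e, Cd3g and Gzma were called in the same directions in these comparisons, so its calls are not read as those of granulocytes. Cebpb, which acts in emergency granulopoiesis, had 240 FPKM in treated wild-type and 97.4 FPKM in treated Tmem173-/- BMDCs, and it, Stat3 and Runx3 were called lower there. Gfi1, a repressor needed for neutrophil development, was called lower in untreated Tmem173-/- BMDCs, with 5.98 against 2.48 FPKM. Gfi1 was also called lower in untreated Irf1-/- BMDCs, and higher in the treated condition labelled Irf3/7-/-. The order of conditions thus differed from one factor to the next.

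Among receptors, partners and inhibitors of the 10 genes' proteins, 6 of 13 tested were called higher and 1 lower in untreated Tmem173-/- BMDCs, and 3 of 12 were higher and 3 lower in treated ones. Fpr2 and Slpi, both called higher untreated, are counted again here from the lists of receptors and of late neutrophil genes. Tlr4, a receptor of calprotectin, was called in neither comparison, with 19.5 and 32.5 FPKM in wild-type and 28.4 and 37.8 FPKM in Tmem173-/- BMDCs. Tlr2 was called higher untreated, with 21.0 against 87.9 FPKM. Cd36, a scavenger receptor, was called higher treated, with 77.8 against 615 FPKM. Against treated wild-type BMDCs, Cd36 was also called higher in treated Irf1-/- BMDCs and in the treated condition labelled Irf3/7-/-. Slpi and Serpinb1a, inhibitors of elastase, were called higher in untreated Tmem173-/- BMDCs, with 10.2 against 54.5 FPKM and 11.5 against 29.7 FPKM. In wild-type BMDCs, stimulation took both to called higher levels, 67.6 and 24.0 FPKM. Timp1, an inhibitor of metalloproteinases such as MMP8, was called lower in treated Tmem173-/- BMDCs, with 277 against 63.2 FPKM.

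**Figure D3:**
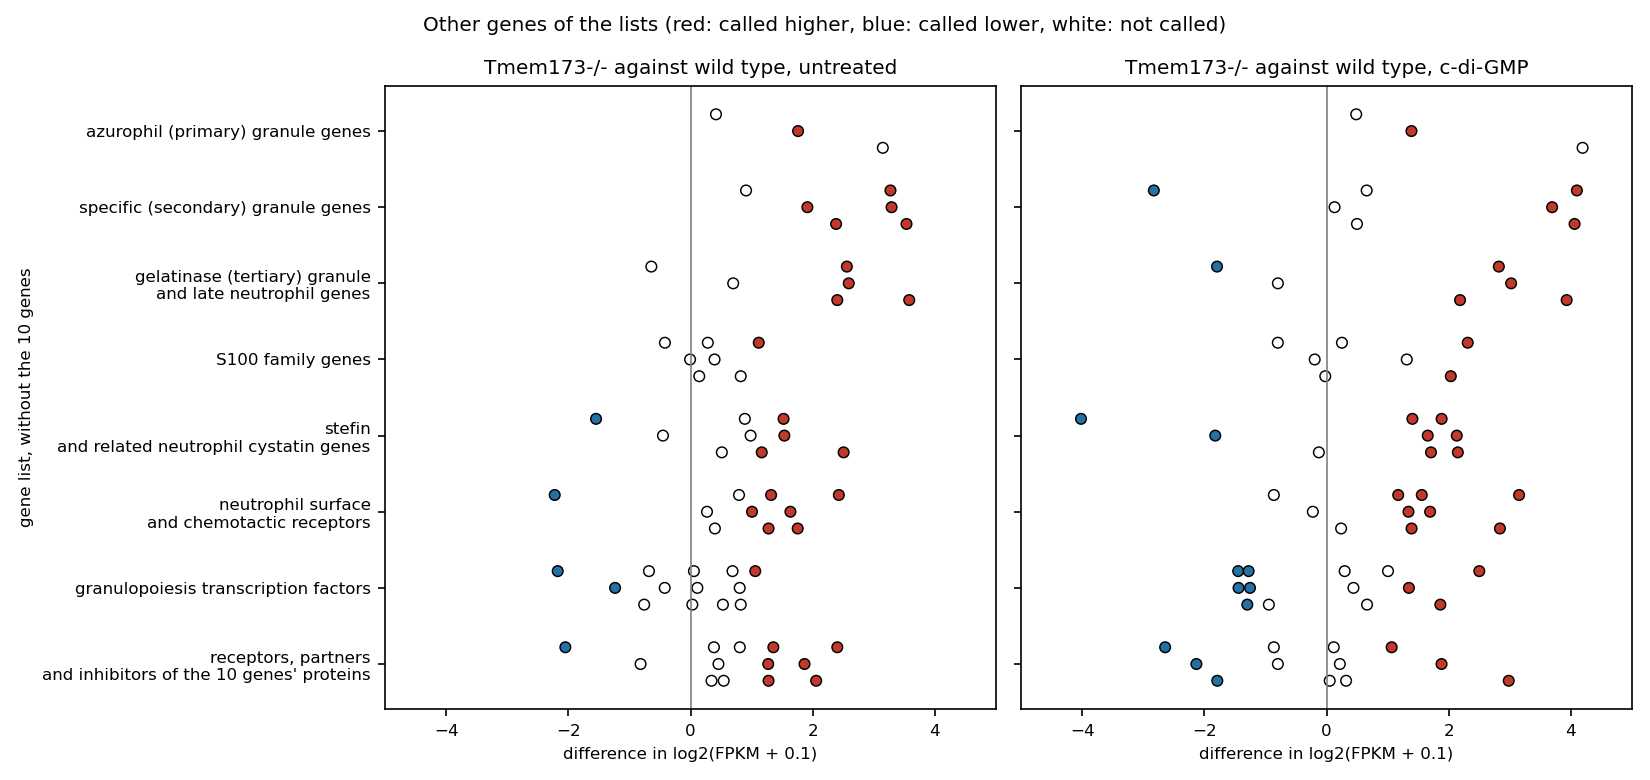
Differences in log2(FPKM + 0.1) between Tmem173-/- and wild-type BMDCs (horizontal axis), untreated on the left and c-di-GMP-treated on the right, for the tested genes of 8 lists (vertical axis) without the 10 genes. Each point is a gene of a list, red when called higher, blue when called lower and white when not called. Fpr2 and Slpi are drawn again in the list of receptors, partners and inhibitors. Specific and gelatinase granule genes lie mostly to the right, with 5 of 6 and 4 of 6 called higher untreated, while the transcription factors spread on both sides of 0.

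The other genes between Camp and Ltf were examined because 3 of the 10 genes share that stretch. Of 27 other genes there, 14 were tested untreated and 0 were called higher and 1 lower in Tmem173-/- than in wild-type BMDCs, with a median log2 difference of -0.23. Treated, 15 were tested and 3 were called higher and 2 lower, with a median of -0.08. The 3 were Cdc25a (1.17), Nradd (1.35) and Nbeal2 (1.59), below the values of Ngp (2.57), Camp (2.70) and Ltf (3.48) in the same comparison. Within 200 kb of S100a8 and S100a9, 8 of 14 other genes were tested, and S100a4 was called higher untreated and S100a4 and S100a6 treated.

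**Figure D4:**
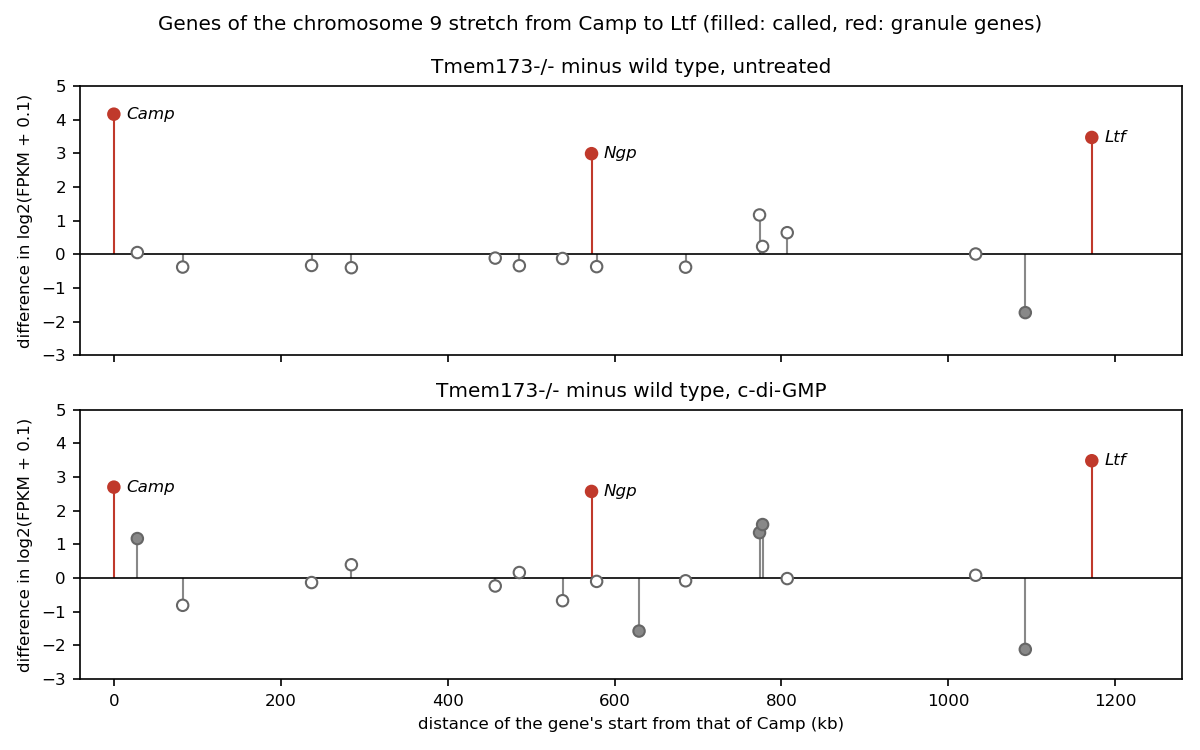
Differences in log2(FPKM + 0.1) between Tmem173-/- and wild-type BMDCs (vertical axis) of the tested genes of the chromosome 9 stretch, by distance in kb of the gene's lower coordinate from that of Camp (horizontal axis, labelled as the start), untreated above and c-di-GMP-treated below. Filled points were called, and Camp, Ngp and Ltf are red. The 3 red points stand between 2.57 and 4.16, and the grey points between them lie between -2.12 and 1.59.

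Markers of other cells moved with the genotypes, and their part in these results was not tested. Neutrophil markers other than the 10 genes (6 measured) summed to 194 and 55.0 FPKM in untreated and treated wild-type BMDCs, 204 and 172 FPKM in Tmem173-/-, 212 and 78.1 FPKM in Irf1-/- and 137 and 66.6 FPKM in Irf3/7-/- BMDCs. These 6, Cxcr2, Csf3r, Cebpe, Gfi1, Stfa2l1 and Il1r2, all belong to lists used above. In untreated Tmem173-/- against wild-type BMDCs, 2 of the 6 were called higher (Csf3r and Il1r2) and 2 lower (Cxcr2 and Gfi1), and after c-di-GMP 4 were called higher and 0 lower. Granulocyte-monocyte progenitor markers other than the 10 genes (7 measured) summed to 41.5 and 24.7 FPKM in wild-type, 140 and 109 FPKM in Tmem173-/-, 85.2 and 57.6 FPKM in Irf1-/- and 76.7 and 55.2 FPKM in Irf3/7-/- BMDCs. Like Mpo, this sum was higher in all 6 knockout conditions than in either wild-type condition. Of its genes, 2 were called higher (Ctsg and Ms4a3) and 1 lower (Cd34) in untreated Tmem173-/- against wild-type BMDCs, and 4 higher (Ctsg, Ms4a3, Kit and Sox4) and 1 lower (Cd34) after c-di-GMP. Ctsg and Prtn3 in this sum are also among the azurophil granule genes above. Ms4a3, a gene of granulocyte-monocyte progenitors, had 4.45 FPKM in treated wild-type against 37.5 FPKM in treated Tmem173-/- BMDCs, and Cd34, of earlier progenitors, had 7.46 against 3.12 FPKM.

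Monocyte and macrophage markers (11 measured) summed to 503 and 1189 FPKM in untreated and treated wild-type, 1118 and 1039 FPKM in Tmem173-/-, 491 and 460 FPKM in Irf1-/- and 421 and 790 FPKM in Irf3/7-/- BMDCs. In Tmem173-/- BMDCs all 11 reached 1 FPKM. T, NK and B cell markers (9 of 10 measured) summed to 386 and 354 FPKM in wild-type, 6.03 and 5.49 FPKM in Tmem173-/-, 10.7 and 16.7 FPKM in Irf1-/- and 367 and 985 FPKM in Irf3/7-/- BMDCs. Gzma, which encodes granzyme A, made up most of the wild-type and Irf3/7-/- sums, with 349 FPKM in untreated wild-type and 315 FPKM in untreated Irf3/7-/- BMDCs, and was listed at 0 in both Tmem173-/- conditions. The cultures of the 4 genotypes thus differed in transcripts of several cell types besides those of granulocytes.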

How the data were processed

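RNA was measured by RNA-seq of poly(A) libraries made with a strand-marking kit in BMDCs of 4 genotypes with and without c-di-GMP. The authors computed FPKM with Cuffdiff, version 1.06 per the labels, combining the 2 replicates of a condition, and deposited them for 23356 genes with interval bounds and a status, which was OK in all 8 conditions for 23245 genes. The aligner, the annotation and the strand setting of Cuffdiff are not given in the sources used here, while the study states opposite-strand, paired-end counting for its SeqMonk step. Although the labels name mm9, of 21522 loci whose symbol is in RefSeq GRCm38.p6, 98.9% overlapped the gene of that name there, and that build was used for positions. The columns of 1 condition of another knockout, 4 in all, have no sample in the labels and were not used. The column names identify treated Tmem173-/- cells by GDP in place of cdg.

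From these values, log2(FPKM + 0.1) was compared in 10 pairs of conditions, with calls made as stated above over all genes. The calling rule was first tested on simulated data with noise drawn from the intervals. No step of single reads was visible in 1395 genes with low values, of which at most 2.22% shared a bin, so depth is unknown and reads could not be recovered. The 10 genes and all lists were chosen with earlier results of these data known. Named genes were the 10, up to 6 genes per list with at least 10 FPKM in a condition and a call in a comparison, taken by highest FPKM, the targeted genes, and for each of the 10 the 3 genes outside the 10 with the highest Pearson r. Genes named beyond this rule (Hp, Cd177, Csf3r, Gfi1, Tlr4, Cd34, Gzma, S100a10, S100a3, S100a5, the cell type markers, the genes between Camp and Ltf and the eosinophil, basophil and mast cell genes) were chosen after their values were seen. The alternatives were pseudocounts of 0.01 and 1 FPKM, no filter and a minimum of 5 FPKM, fold changes above 1.5 and above 4, median centring, the fold change alone, and a z from the intervals with a Benjamini-Hochberg q under 0.05. Software versions were matplotlib 3.10.9, scipy 1.17.1, pandas 2.3.3 and numpy 2.4.6, under python 3.11.15.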

Additional observations from a re-analysis of the deposited data

How the results depend on the processing

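Over 9 alternatives, 180 counts of called genes among the 10 were recomputed, and 162 stayed within 1.5 times the value given above, while 18 did not. Of the 300 log2 differences recomputed with another pseudocount or median centring, which shifted conditions by at most 0.04, none of a called gene changed sign and all moved by less than the interval allows. In Tmem173-/- against wild-type BMDCs, 8 to 10 of the 10 genes were called higher in every alternative. Since the genes were picked for this contrast, nothing is read from the stability of that count. With a 4-fold threshold, the counts fell to 0 lower within wild-type, 0 lower within Irf1-/-, 0 higher within Irf3/7-/-, 1 higher (Mpo) and 1 lower (Camp) in treated Irf1-/-, 1 higher (Mpo) and 0 lower in treated Irf3/7-/-, and 0 lower in untreated Irf1-/- against wild-type BMDCs. With 1.5-fold, they were 1 higher (Mmp8) within Tmem173-/-, 2 lower (Ltf and Mpo) within Irf1-/-, 2 lower (Camp and S100a8) in untreated Irf1-/- and 3 lower (Ltf, Ngp and S100a8) in untreated Irf3/7-/- against wild-type BMDCs. Median centring gave 2 lower (Ltf and Mpo) within Irf1-/-. With the fold change alone, Elane joined the calls, and there were 5 lower within wild-type, 2 lower within Irf1-/-, 1 lower within Irf3/7-/-, and 2 higher each in untreated Irf1-/- and untreated Irf3/7-/- against wild-type BMDCs. These shifts follow from the thresholds and the rule themselves. Counts of all called genes that moved by over 1.5 times are given next. At 4-fold, the calls went from 2291 to 592 within wild-type, from 1952 to 589 within Irf1-/- and from 2015 to 500 within Irf3/7-/-. Against wild-type they went from 2980 to 1174 (Tmem173-/-), 838 to 232 (Irf1-/-) and 818 to 207 (Irf3/7-/-) treated, and from 1221 to 422, 527 to 176 and 224 to 36 untreated. A minimum of 5 FPKM gave 538 (Irf1-/-) and 460 (Irf3/7-/-) treated, and 800 (Tmem173-/-), 323 (Irf1-/-) and 112 (Irf3/7-/-) untreated. A pseudocount of 1 FPKM gave 536 and 118 in treated and untreated Irf3/7-/-, and 1.5-fold gave 350 in the latter. Within Tmem173-/- BMDCs, the 6 calls became 1 and 11 with pseudocounts of 1 and 0.01 FPKM, 10 without a filter, 56 at 1.5-fold, 0 at 4-fold, 83 by the fold change alone and 27 by z. No paired analysis was possible because the table holds a single value per condition, and for the same reason leaving out a replicate was not run. The depth is unknown, and the intervals of Elane, which start at 0 throughout, allow no call under any alternative that uses their overlap.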

Other observations

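Several eosinophil granule genes had another order of conditions than the neutrophil granule genes. Prg2, which encodes eosinophil major basic protein, had 676 FPKM in both untreated and treated wild-type BMDCs, 214 and 167 FPKM in Tmem173-/-, 127 and 161 FPKM in Irf1-/- and 283 and 493 FPKM in Irf3/7-/- BMDCs. Epx, which encodes eosinophil peroxidase, had 73.3 and 65.3 FPKM in wild-type and 13.9 to 40.2 FPKM in the knockout conditions. Ear1 and Ear6, eosinophil-associated ribonuclease genes that belong to a family of close copies, were likewise highest in wild-type BMDCs, at 163 and 161 FPKM and at 169 and 178 FPKM. Other eosinophil genes of the list did not share that order. Ear2, of the same ribonuclease family, had 382 and 171 FPKM in wild-type and 846 and 151 FPKM in Irf1-/- BMDCs and was called higher in untreated Irf1-/- BMDCs. Siglecf, a surface receptor of eosinophils, was called higher in treated Irf1-/- BMDCs and in the treated condition labelled Irf3/7-/-, with 10.3 FPKM in wild-type against 23.2 and 26.6 FPKM, and lower in untreated Tmem173-/- BMDCs. The basophil and mast cell genes Mcpt8 and Prss34 were highest in Irf3/7-/- BMDCs, at 47.5 and 74.0 FPKM and at 72.4 and 110 FPKM. Over the whole list of eosinophil, basophil and mast cell markers (12 measured), the summed level was 1565 and 1343 FPKM in wild-type, 631 and 445 FPKM in Tmem173-/-, 1158 and 501 FPKM in Irf1-/- and 1006 and 1112 FPKM in Irf3/7-/- BMDCs.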
